A study of Mus musculus with 22 samples.

Results

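The genes described here are 9 genes of adrenergic and cAMP signalling, measured by RNA-seq in mouse interscapular brown adipose tissue (BAT): the receptors Adrb1, Adrb3, Adra1a and Adra2a, the cyclase Adcy3, the protein kinase A (PKA) subunits Prkaca and Prkar2b, and the phosphodiesterases Pde3b and Pde4d. They were chosen by name, for their role in the pathway, out of 55487 gene identifiers, and all 9 were found. The tissue came from 22 C57BL/6 mice labelled male, either wild type (WT) or globally lacking CPEB2 (KO), an RNA-binding protein that controls translation. Both genotypes were bred from heterozygous crosses, so every cell of a KO mouse, not only the brown adipocytes, carried the deletion. In the untreated cohort, 5 mice of each genotype, aged 21 to 25 weeks, received no virus and were food-deprived for some hours before collection. In the AAV cohort, mice received 30 µl of adeno-associated virus (AAV2/8) in the interscapular BAT at 16 weeks and the tissue was collected 9 weeks later. The virus carried either GFP as the control or 3Xflag-PRDM16, a transcriptional regulator of brown adipocyte identity, and each genotype received each virus, which gave 4 groups of 3 mice, written as genotype + virus. The comparisons asked how the loss of CPEB2, and a supply of PRDM16 to tissue with and without CPEB2, went with the levels of these transcripts.

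In brown fat, noradrenaline from sympathetic nerves binds β-adrenergic receptors, which act through the stimulatory G protein on adenylyl cyclase to make cAMP. cAMP frees the catalytic subunits of PKA from their regulatory subunits, and PKA then drives lipolysis and the transcription of thermogenic genes such as Ucp1. Phosphodiesterases break cAMP down, and α2-adrenergic receptors oppose the pathway through the inhibitory G protein, while α1-adrenergic receptors signal through calcium.

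Levels below are CPM, that is, counts brought to a common library total, scaled by the trimmed mean of M values (TMM) within each cohort. The 2 cohorts were normalised separately, and tests were made within a cohort only. Libraries held 55320927 to 162721202 counts in the untreated cohort and 61636889 to 143005309 in the AAV cohort. Cpeb2 itself was at 11.7, 9.00, 7.69, 12.4 and 14.3 CPM in the WT libraries and at 11.7, 5.27, 2.86, 5.78 and 2.10 CPM in the KO libraries. The library labelled KO replicate 1 was therefore within the WT range, and the untreated log2 fold change of each of the 8 tested genes is also given without it. This was not computed for the other genes of the pathway lists. In the AAV cohort Cpeb2 was lower in all 6 KO than in all 6 WT libraries (log2 fold change −1.26 ± 0.10 (SE), edgeR adjusted p = 0.000449). Of the 10 untreated libraries labelled male, 2 WT (replicates 3 and 5) and 4 KO (replicates 1, 3, 4 and 5) lacked Y-linked transcripts. These same libraries held Xist, a transcript typical of female cells, at 104 to 305 CPM, so their transcripts were at odds with the male label. By these transcripts, sex was unevenly spread over the genotypes. WT replicate 4 held Y-linked transcripts and also Xist, at a level between those of the libraries without Y-linked transcripts and the others with them. It is counted below among the libraries with Y-linked transcripts. The summed level of 20 skeletal muscle markers was above 1000 CPM in 1 WT (replicate 3) and 3 KO libraries (replicates 1, 2 and 5) of that cohort. Every AAV library held Y-linked transcripts and was under 1000 CPM for the muscle markers. Their muscle sum was 160 CPM in KO + AAV-GFP replicate 1 and 29.3 to 70.5 CPM in the other AAV libraries. All 15 brown adipocyte markers were detected in both cohorts, with summed levels of 11155 to 23801 CPM in the untreated and 10084 to 14506 CPM in the AAV cohort. These markers include Ucp1, Elovl3, Dio2, Ppargc1a, Plin1 and Lipe. The pathway lists below also hold them, as cAMP-responsive transcripts or lipolysis genes acted on by PKA. Prdm16 was 1.49 ± 0.24 (SE) higher on the log2 scale with AAV-PRDM16 than with AAV-GFP (adjusted p = 0.0527), but was at 45.9 CPM in WT + AAV-PRDM16 replicate 3, against 23.9 to 40.2 CPM in the WT + AAV-GFP libraries.

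Of the 9 genes, 6 had at least 1 promoter window in RefSeq (GRCm38.p6, 250 bases before to 50 after a start site), and 3 of them held TGACG, the core of the cAMP response element bound by the pathway's own transcription factor CREB, on either strand. The stretches around each core are shown because they are the matches to the motif searched. The capitals mark the core, printed 5′ to 3′ on the plus strand, where CGTCA is its reverse complement.
Prkaca, chr8:83972962-83972986: gctgcgggggCGTCAcggacagagg
Prkaca, chr8:83972848-83972872: ctgcaactcgCGTCActcatccagg
Adra2a, chr19:54045180-54045204: acgtgggggcTGACGccggctgctc
Adrb1, chr19:56722017-56722041: tgcgggagccTGACGcgcggccccg
Counted by window, the core was present in 3 of the 9 windows of these genes and in 20.8% of 32851 RefSeq promoters of that length. The full palindrome TGACGTCA, which contains the core on both strands, was present in 1.79% of those promoters. None of the windows of these genes held the full palindrome. A match is a string of letters and not evidence of binding.

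The 9 transcripts differed widely in abundance. The length used below is the union of all annotated exons of a gene. It was 12006 bases for Pde4d and 8728 for Adra1a, against 4207 and 4282 bases in their longest transcripts. By the longest transcript their values per kilobase would be higher, so their place in the order depends on the length used. Per kilobase of exon, Prkar2b was the most abundant in both cohorts (median 187 CPM per kb in the untreated and 297 CPM per kb in the AAV libraries), followed by Prkaca (79.8 and 94.1) and Adrb3 (72.6 and 56.6). Pde3b (27.3 and 44.6 CPM per kb) and Adcy3 (21.8 and 19.9) lay below these. Adrb1 (5.98 and 8.59 CPM per kb), Pde4d (5.18 and 6.97) and Adra1a (4.999 and 11.2) formed a lower tier, in an order that differed between the cohorts. Neighbours in that order overlapped: in the untreated KO libraries, Adrb3 (105 ± 32.0 CPM per kb, SD, n = 5) and Prkaca (93.8 ± 41.8) did not differ beyond their spread. Adra2a was at the edge of detection, with 0 to 16 raw counts per library and at most 0.2005 CPM. It had 0 counts in 3 untreated KO, 1 WT + AAV-PRDM16 and 2 KO + AAV-PRDM16 libraries, where 3 counts, the most that a count of 0 allows, would have been 0.0186 to 0.0596 CPM over the untreated and 0.0203 to 0.0501 CPM over the AAV libraries. No difference in Adra2a was detectable at this depth, and no fold is given for it.

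**Figure D1:**
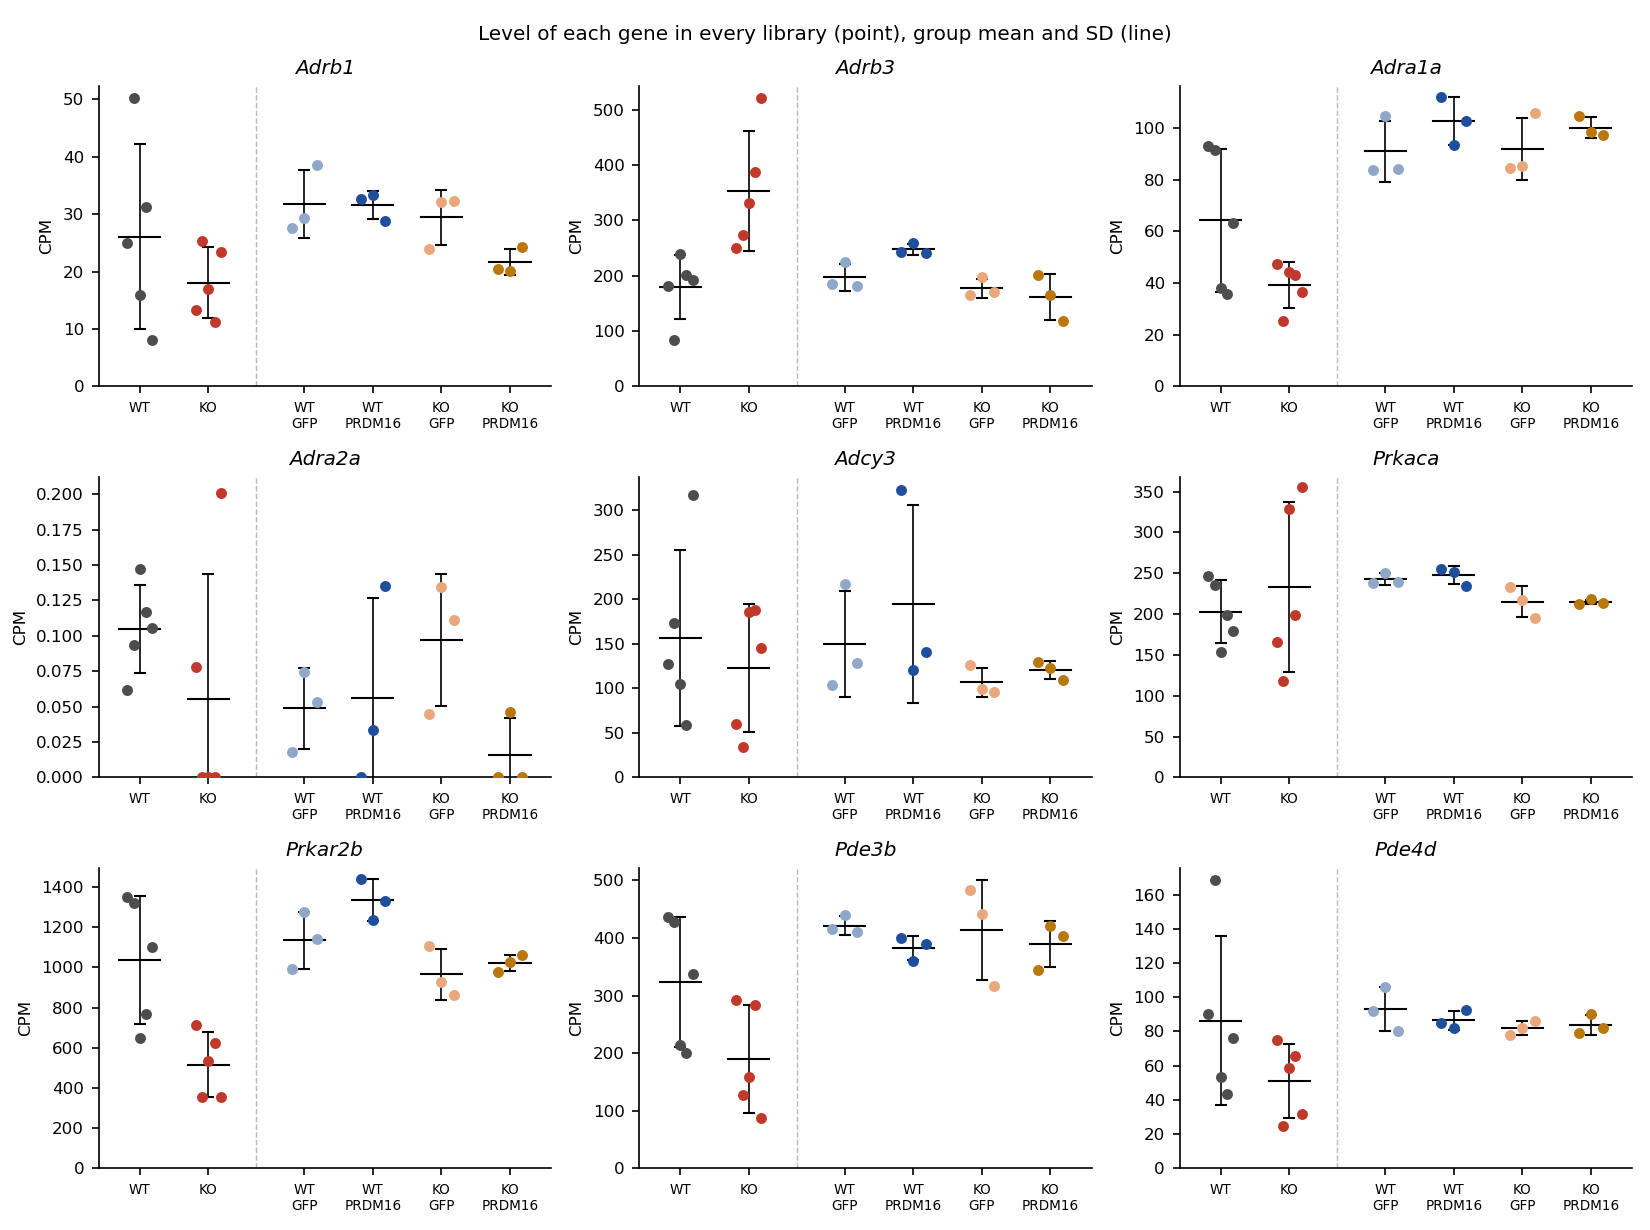
Level of each of the 9 genes in every library (CPM, linear axes from 0), by group, untreated groups left of the dashed line and AAV groups right of it, with horizontal lines for the group mean and bars for the SD. The untreated points spread widely within both genotypes for most genes, and the 5 KO points of Adrb3 (251 to 521 CPM) lie above the 5 WT points (84.1 to 239 CPM).

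For every gene of the set except Adra2a, the untreated libraries were further apart than the AAV libraries. No ratio was formed for Adra2a, which had libraries without counts. From the lowest to the highest untreated library, over both genotypes, Adcy3 varied 9.33-fold, Pde4d 6.79-fold, Adrb3 6.20-fold, Adrb1 6.17-fold and Prkaca 3.03-fold. Over the 12 AAV libraries, all 4 groups together, the same ratios were 3.36 for Adcy3, 1.36 for Pde4d, 2.18 for Adrb3, 1.91 for Adrb1 and 1.31 for Prkaca. These ratios include the differences between groups.

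In untreated BAT, Adrb3, the main β-adrenergic receptor of mouse adipocytes, was about 2-fold higher in KO than in WT, and Prkar2b, the main PKA regulatory subunit of fat, was about 2-fold lower. Adra1a was lower, at a log2 fold change of −0.71 ± 0.31, and the estimates for Pde3b (−0.77 ± 0.38), Pde4d (−0.76 ± 0.41), Adrb1, Adcy3 and Prkaca had an unadjusted p above 0.05. None of the 8 genes tested passed an adjusted p of 0.05 by edgeR's quasi-likelihood test, as was the case for all genes (0% of 17869 called). At an unadjusted p under 0.05, 3 of the 8 were counted (1 higher, 2 lower), against 15.9% of all genes tested, of which 892 were higher and 1944 lower. By DESeq2 none of all genes passed either, with 3493 at an unadjusted p under 0.05. The median log2 fold change was −0.62 over the 8 genes and 0.04 over all genes.

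Among the receptors, Adrb3 was at 182, 84.1, 239, 202 and 193 CPM in the WT libraries and at 251, 274, 332, 388 and 521 CPM in the KO libraries. Every KO library lay above every WT library, which was the case, in either direction, for 1.4% of all genes tested. The means were 180 ± 57.8 CPM in WT and 353 ± 108 CPM in KO (SD, n = 5 each), and the log2 fold change was 0.97 ± 0.31 (SE, adjusted p = 0.305). An exact two-sided permutation test on log2 CPM gave p = 0.00794, the smallest that 5 against 5 allows, or 0.229 after adjustment over the 72 such tests made (9 genes in 8 comparisons). The difference was 1.07 without the library labelled KO replicate 1. Among the libraries without Y-linked transcripts, the 2 WT (193 and 239 CPM) again lay below the 4 KO libraries (251 to 521 CPM). Among those low in muscle transcripts, the 4 WT libraries (84.1 to 202 CPM) lay below the 2 KO libraries (332 and 388 CPM). The log2 fold change was 0.55 once trends with GC content and transcript length had been removed from each library (Adrb3 has 55.3% GC against a median of 49.7% over genes tested). An antisense gene, Gm45470, overlaps Adrb3 and was at 6.35 to 28.9 CPM. Whether strand was used in counting is not given in the sources used here, so reads from the overlap cannot be told apart.

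Adra1a, the α1 receptor of this set, was at 92.9, 91.6, 38.1, 35.7 and 63.3 CPM in WT and at 47.3, 25.2, 44.1, 43.2 and 36.5 CPM in KO. Of the 5 WT libraries, 3 were above all KO libraries and the other two were within the KO range. The log2 fold change was −0.71 ± 0.31 (SE, edgeR adjusted p = 0.309), and it was −0.16 without WT replicates 1 and 2, the libraries with the highest levels, and −0.23 among libraries without Y-linked transcripts. Without the library labelled KO replicate 1 it was −0.79. Adrb1, the β1 receptor, was at 24.9, 50.2, 15.9, 31.3 and 8.14 CPM in WT and at 13.3, 25.4, 17.0, 11.2 and 23.5 CPM in KO. These groups overlapped (−0.53 ± 0.42), and the sign of the difference turned with the libraries used (0.47 among those without Y-linked transcripts, 0.027 without WT replicates 1 and 2). It was −0.44 without the library labelled KO replicate 1 and −1.14 with the GC and length trend removed.

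Adcy3, an adenylyl cyclase, was at 127, 173, 105, 58.3 and 317 CPM in WT and at 59.3, 34.0, 186, 188 and 145 CPM in KO. The WT library at 317 CPM was the highest and a KO library at 34.0 CPM the lowest, and the groups overlapped throughout (log2 fold change −0.35 ± 0.52, and −0.17 without the library labelled KO replicate 1). The estimate was −0.97 with a covariate for Y-linked transcripts and 0.14 with the libraries rich in muscle transcripts left out. Cenpo overlaps the 3′ end of Adcy3 and was low in every library of both cohorts (2.73 to 6.56 CPM).

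In the untreated cohort the PKA subunits did not move together. Prkar2b was at 1351, 1323, 650, 769 and 1101 CPM in WT and at 714, 355, 534, 623 and 353 CPM in KO. One KO library (714 CPM, the library labelled KO replicate 1) lay above the lowest WT library and the others lay below all WT libraries. The means were 1039 ± 319 and 516 ± 161 CPM (SD, n = 5 each), and the log2 fold change was −1.01 ± 0.31 (SE, edgeR adjusted p = 0.305; exact permutation p = 0.0159, adjusted 0.229). It was −1.16 without the library labelled KO replicate 1, −0.65 without WT replicates 1 and 2, −0.64 among libraries without Y-linked transcripts and −0.63 with the GC and length trend removed. Prkar2b was the only one of the 8 genes that met a rule of at least 2-fold and an adjusted p of at most 0.5, which 10.8% of all genes met. Prkaca, the main catalytic subunit, was at 246, 235, 154, 198 and 179 CPM in WT and at 166, 118, 329, 199 and 356 CPM in KO. The KO libraries spanned both sides of the WT range (0.20 ± 0.32). The estimate was 0.30 without the library labelled KO replicate 1 and −0.33 with the GC and length trend removed.

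**Figure D2:**
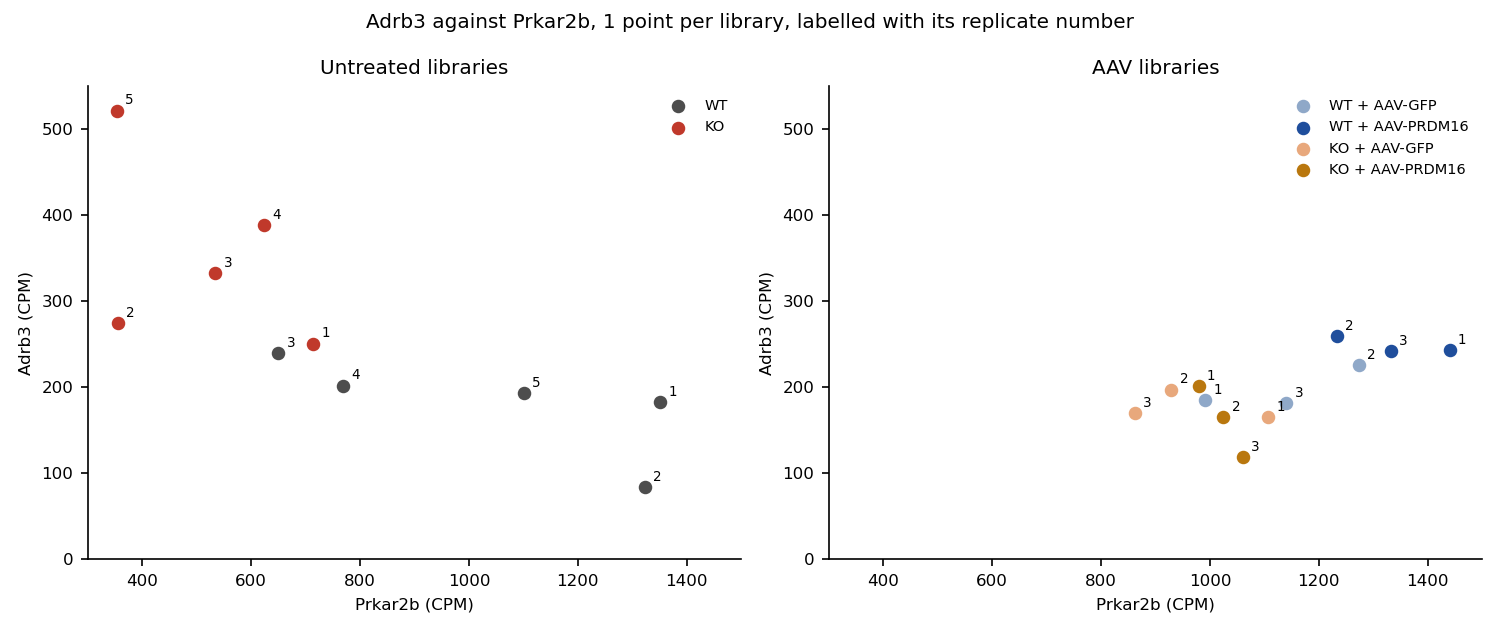
Adrb3 (CPM, vertical axis from 0) against Prkar2b (CPM, horizontal axis starting above 0) in each untreated and each AAV library, coloured by group and labelled with the replicate number. The untreated KO libraries lie towards high Adrb3 and low Prkar2b, and the 3 WT + AAV-PRDM16 libraries lie at 241 to 259 CPM of Adrb3 and 1234 to 1441 CPM of Prkar2b.

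Both phosphodiesterases were lower in the KO means with overlapping groups. Pde3b, the phosphodiesterase through which insulin restrains lipolysis, was at 437, 427, 215, 200 and 337 CPM in WT and at 293, 127, 159, 283 and 87.5 CPM in KO (−0.77 ± 0.38, edgeR adjusted p = 0.324; exact permutation p = 0.0794). In WT, 2 libraries lay within the KO range. The estimate for Pde3b was −0.98 without the library labelled KO replicate 1, −0.35 without WT replicates 1 and 2, −0.42 among libraries without Y-linked transcripts and −0.28 with the GC and length trend removed. Pde4d, a cAMP-specific phosphodiesterase, was at 90.5, 168, 53.2, 43.3 and 76.0 CPM in WT and at 74.8, 24.8, 58.6, 65.8 and 31.6 CPM in KO (−0.76 ± 0.41, edgeR adjusted p = 0.349). The highest of its WT libraries was at 168 CPM. The estimate for Pde4d was −0.93 without the library labelled KO replicate 1, −0.12 without WT replicates 1 and 2 and −0.15 among libraries without Y-linked transcripts.

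In bulk tissue, fewer cells of a type and less RNA per cell cannot be told apart. The summed brown adipocyte markers overlapped between untreated WT (11890 to 21305 CPM) and KO (11155 to 23801 CPM), while the summed level of the 8 smooth muscle and pericyte markers did not (521 to 611 CPM in WT, 342 to 514 CPM in KO). The share of counts from mitochondrial genes was 32.0% to 38.9% in WT and 24.6% to 34.5% in KO. The part of these values in the differences above was not tested, beyond the subsets of libraries given.

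After AAV-GFP, the virus control, KO and WT differed little in these genes. None of the 9 passed an adjusted p of 0.05 (0.0529% of 18899 genes did), and none had an unadjusted p under 0.05 (9.18% of all genes did). Adrb3 was at 185, 225 and 181 CPM in WT + AAV-GFP and at 165, 197 and 170 CPM in KO + AAV-GFP (log2 fold change −0.15 ± 0.17). These libraries overlapped, and no KO library was above the WT + AAV-GFP range. Prkar2b was at 992, 1274 and 1140 CPM in WT + AAV-GFP and at 1107, 929 and 862 CPM in KO + AAV-GFP (−0.23 ± 0.13). Prkaca was the one gene whose groups did not overlap (238, 251 and 240 CPM against 233, 217 and 196 CPM; −0.17 ± 0.09, edgeR adjusted p = 0.605), as were 13.4% of all genes. For Adra1a (0.01 ± 0.12) and Pde3b (−0.03 ± 0.14) the estimates were near 0.

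After AAV-PRDM16, 4 of the 9 genes were lower in KO than in WT in every library, namely Adrb3, Adrb1, Prkar2b and Prkaca. Non-overlapping groups were found, in either direction, for 22.8% of all genes. The same 4 had an unadjusted p under 0.05, against 13.7% of all genes, and none passed an adjusted p of 0.05, against 0.0476%. The median log2 fold change over the 9 genes was −0.39, against 0.01 over all genes. Adra1a (−0.04 ± 0.12), Pde3b (0.03 ± 0.14) and Pde4d (−0.05 ± 0.11), which had been lower in the untreated KO means, were near 0.

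Adrb3 was at 243, 259 and 241 CPM in WT + AAV-PRDM16 and at 201, 165 and 119 CPM in KO + AAV-PRDM16. The KO libraries lay below the WT libraries and were further apart from each other. The means were 248 ± 9.84 and 162 ± 41.4 CPM (SD, n = 3 each), and the log2 fold change was −0.62 ± 0.17 (SE, edgeR adjusted p = 0.154), in the opposite direction to that of the untreated cohort. DESeq2 called it (adjusted p = 0.0205), and limma-voom with sample quality weights did not. Adrb1 was at 32.7, 33.4 and 28.8 CPM in WT + AAV-PRDM16 and at 20.5, 20.2 and 24.2 CPM in KO + AAV-PRDM16 (−0.55 ± 0.15, edgeR adjusted p = 0.157). It was called by DESeq2 (adjusted p = 0.0342) and by limma-voom (adjusted p = 0.0333). No comparison of 3 against 3 can give an exact permutation p under 0.1.

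Prkar2b was at 1441, 1234 and 1332 CPM in WT + AAV-PRDM16 and at 979, 1025 and 1060 CPM in KO + AAV-PRDM16, a log2 fold change of −0.39 ± 0.13 (edgeR adjusted p = 0.216; limma-voom adjusted p = 0.0423). Prkaca was at 256, 252 and 235 CPM against 213, 218 and 214 CPM (−0.20 ± 0.09, edgeR adjusted p = 0.342), a small difference between tightly grouped libraries. Adcy3 was at 323, 121 and 141 CPM in WT + AAV-PRDM16 and at 129, 123 and 110 CPM in KO + AAV-PRDM16. The difference of −0.69 ± 0.34 rested on 1 library, since it was −0.12 without WT + AAV-PRDM16 replicate 1.

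**Figure D3:**
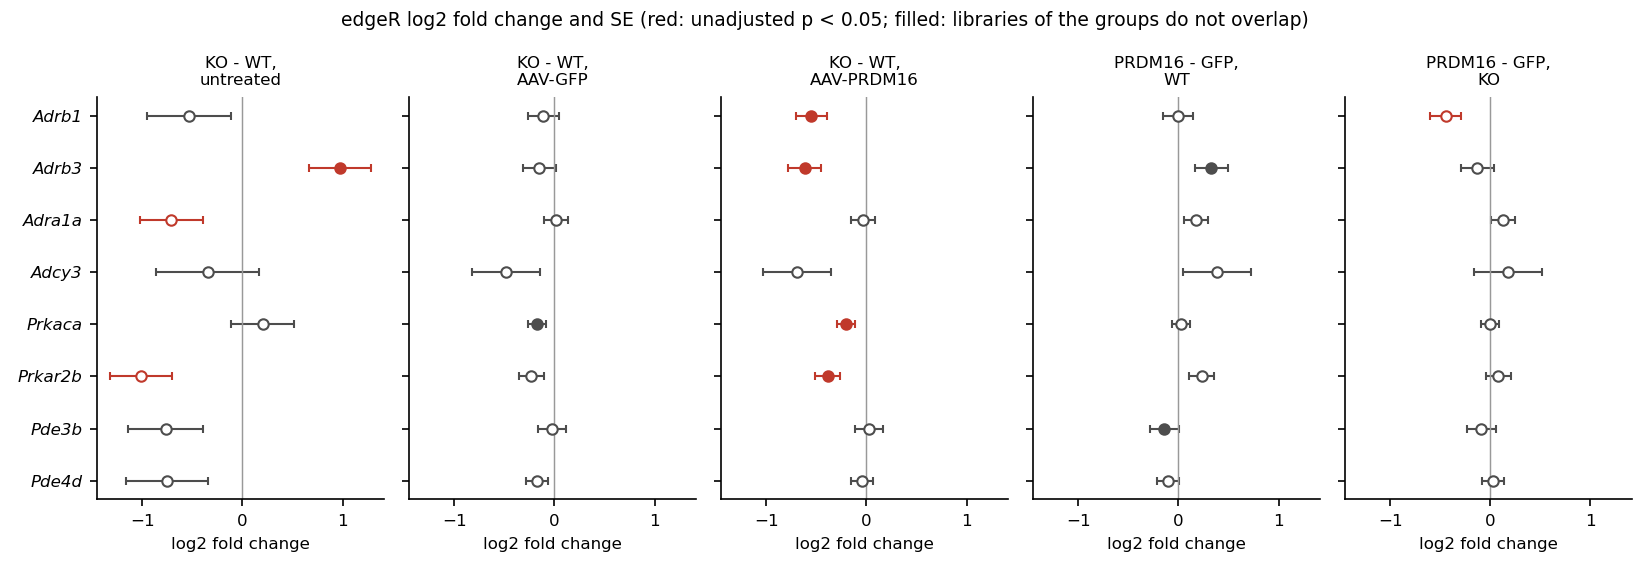
Log2 fold change with bars of 1 standard error for 8 of the 9 genes (Adra2a is left out because its counts are at or near 0), for KO minus WT in the untreated, AAV-GFP and AAV-PRDM16 libraries and for AAV-PRDM16 minus AAV-GFP in WT and in KO; red marks an unadjusted p under 0.05, and filled points mark groups that do not overlap. Adrb3 is at 0.97 in the untreated cohort and at −0.15 and −0.62 for KO against WT after AAV, while Prkar2b is below 0 in all 3 of those comparisons.

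The genotype comparison over both viruses was the mean of the KO against WT contrasts within each virus. None of the 9 genes passed an adjusted p of 0.05, against 2.18% of all genes. At an unadjusted p under 0.05, 5 of the 9 genes were lower in KO, against 18.3% of all genes in either direction. These were Prkar2b (−0.31 ± 0.09, edgeR adjusted p = 0.0880), Adrb3 (−0.38 ± 0.12, adjusted p = 0.101), Adrb1 (−0.33 ± 0.11, adjusted p = 0.120), Prkaca (−0.19 ± 0.06, adjusted p = 0.133) and Adcy3 (−0.59 ± 0.24, adjusted p = 0.213). Adcy3 was at −0.30 without WT + AAV-PRDM16 replicate 1. For Prkaca all 6 KO libraries (196 to 233 CPM) lay below all 6 WT libraries (235 to 256 CPM), as was the case, in either direction, for 2.71% of all genes. Its exact permutation p, with libraries exchanged within each virus, was 0.005, the smallest this design allows, and 0.229 after adjustment over the 72 tests. DESeq2 called Prkar2b, Adrb3 and Prkaca in this comparison, among 1584 genes in all, against 412 by edgeR.

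Markers of several cell types moved with genotype in the AAV libraries. The brown adipocyte sum was 10270 to 11555 CPM in KO + AAV-PRDM16 and 12613 to 14506 CPM in WT + AAV-PRDM16. Since it includes Ucp1 and other genes of the pathway lists, this sum is not a measure of cell number alone. The sums were higher in KO + AAV-PRDM16 for 10 preadipocyte and fibroblast markers (275 to 308 against 161 to 215 CPM), 8 macrophage markers (68.0 to 86.3 against 38.4 to 46.5 CPM), 10 endothelial markers (489 to 624 against 427 to 478 CPM) and 8 smooth muscle and pericyte markers (543 to 686 against 423 to 517 CPM). None of these ranges overlapped. All markers of these lists were above 0.1 CPM in at least 1 library. The sum of the white adipocyte markers overlapped (57.0 to 260 against 19.0 to 69.3 CPM). After AAV-GFP, 4 of these sums were also higher in every KO than in every WT library, for the white adipocyte (96.4 to 151 against 33.7 to 50.1 CPM), macrophage (129.8 to 302 against 48.8 to 108 CPM), preadipocyte and fibroblast (290.5 to 417 against 192 to 288 CPM) and smooth muscle and pericyte markers (587 to 681 against 456 to 565 CPM). The brown adipocyte sum (10638 to 11107 against 10084 to 13106 CPM) and the endothelial sum (398 to 666 against 419 to 543 CPM) overlapped. The part of tissue composition in the lower Adrb3, Adrb1, Prkar2b and Prkaca was not tested.

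AAV-PRDM16 was next set against AAV-GFP within each genotype. In WT, none of the 9 had an unadjusted p under 0.05 against AAV-GFP (7.29% of all genes) and none passed an adjusted p of 0.05 (0%). Adrb3 was higher in every WT + AAV-PRDM16 library (241 to 259 CPM) than in every WT + AAV-GFP library (181 to 225 CPM; 0.33 ± 0.16, edgeR adjusted p = 0.720). Pde3b was lower in every one (359 to 399 against 410 to 439 CPM; −0.14 ± 0.14, edgeR adjusted p = 0.901). Groups that did not overlap were found for 14.2% of all genes. In KO, only Adrb1 had an unadjusted p under 0.05 (−0.45 ± 0.15, edgeR adjusted p = 0.488), against 6.41% of all genes, and 0% of genes passed an adjusted p of 0.05. The Adrb1 groups overlapped, at 23.9, 32.1 and 32.3 CPM in KO + AAV-GFP and 20.5, 20.2 and 24.2 CPM in KO + AAV-PRDM16.

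KO + AAV-PRDM16 was also set against WT + AAV-GFP, the question being whether KO tissue given PRDM16 stood where WT tissue did. Adrb1 was lower (−0.56 ± 0.15, edgeR adjusted p = 0.419) and was the only one of the 9 with an unadjusted p under 0.05 (7.93% of all genes). An adjusted p of 0.05 was passed by 0.00529% of genes and by none of the 9. Adrb1 and Prkaca did not overlap between these groups, as was found for 13.2% of all genes. Adrb3 (−0.29) and Prkar2b (−0.15) overlapped. Over both genotypes, the virus gave none of the 9 an unadjusted p under 0.05 (9.09% of all genes) or an adjusted p of 0.05 (0.037%). The interaction of genotype and virus, which tests whether the virus acted differently in KO, was −0.46 ± 0.23 for Adrb3 and −0.44 ± 0.21 for Adrb1, each with an adjusted p of 0.9998. The Adrb3 interaction was −0.28 without KO + AAV-PRDM16 replicate 3. No gene of the 9 had an unadjusted interaction p under 0.05 (3.19% of all genes), and 0% passed an adjusted p of 0.05. Neither DESeq2 nor limma-voom called any of the 9 in the virus comparisons, the interaction, or KO against WT after AAV-GFP.

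**Figure D4:**
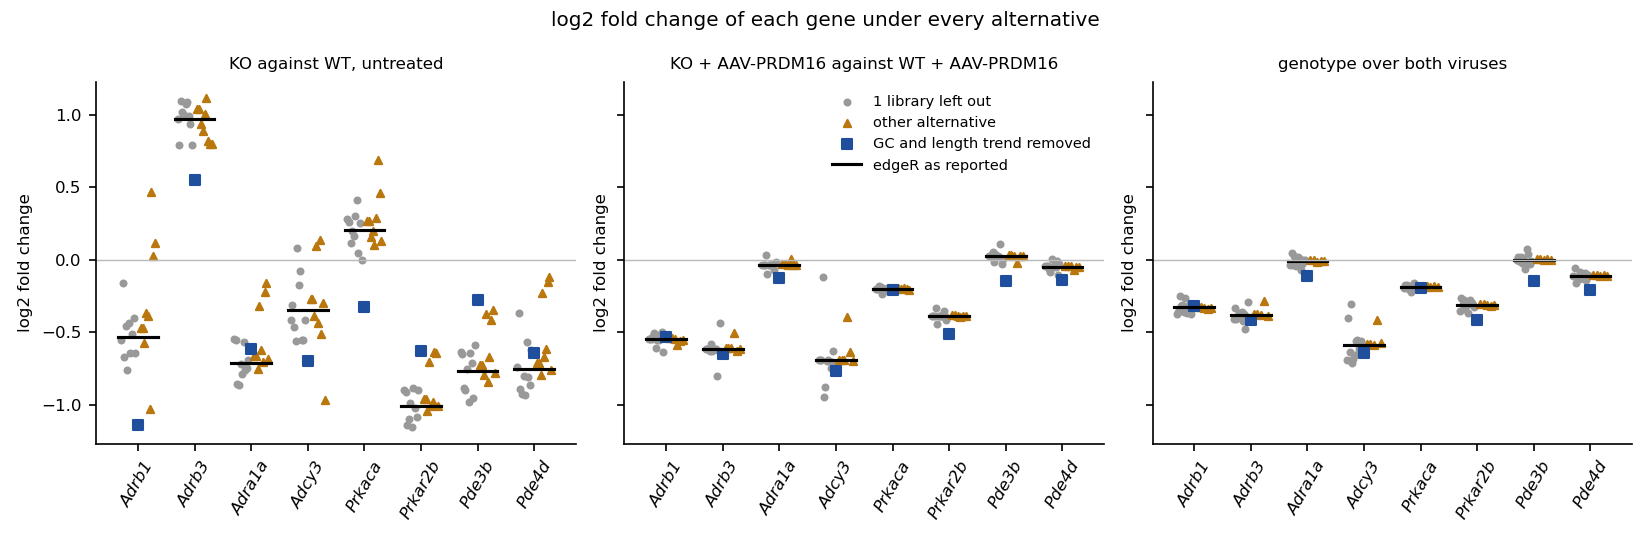
Log2 fold change of KO over WT for 8 of the 9 genes in the untreated cohort, after AAV-PRDM16 and over both viruses, as reported (line), with 1 library left out (circles), with the GC and length trend removed (squares) and under the other settings (triangles). Adrb3 stays above 0 in the untreated cohort (0.55 to 1.12) and below 0 after AAV-PRDM16 (−0.80 to −0.43), whereas untreated Adrb1, Adcy3 and Prkaca have points on both sides of 0.

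The wider pathway was described with 12 lists holding 131 genes, the 9 included, of which 120 were tested in each cohort. At an unadjusted p under 0.05, 10 were higher and 20 lower in untreated KO (25.0% of those tested, against 15.9% of all genes). After AAV-GFP 3 were higher and 4 lower (5.83%, against 9.18% of all genes), and after AAV-PRDM16 10 were higher and 14 lower (20.0%, against 13.7% of all genes). The one gene of the lists that passed an adjusted p of 0.05 in any comparison was Npy1r, a receptor for neuropeptide Y, which sympathetic nerves release with noradrenaline. It was higher in KO over both viruses (log2 fold change 1.55 ± 0.33, edgeR adjusted p = 0.0378). It was 1 of the 120 list genes tested in that comparison, where 2.18% of all genes passed. Its level was low, at 0.723 ± 0.267 and 0.220 ± 0.130 CPM in WT and 1.13 ± 0.0976 and 1.24 ± 0.654 CPM in KO (SD, n = 3 each, AAV-GFP then AAV-PRDM16).

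Upstream of cAMP, Gnas, the stimulatory G protein subunit, was the most abundant G protein transcript (2415 ± 634 CPM in untreated WT and 2921 ± 1056 CPM in KO; 0.27 ± 0.32). Among the 10 G protein subunits, 1 was higher (Gnb2, 0.79 ± 0.35) and 3 were lower in untreated KO at an unadjusted p under 0.05 (Gnaq, −0.74; Gnai1, −0.89; Gng12, −0.67), or 40.0% against 15.9% of all genes. Of 8 adrenergic receptors tested, 2 were higher and 2 lower in KO than in WT after AAV-PRDM16 at an unadjusted p under 0.05. They were 50% of the list, against 13.7% of all genes. Adra1d, another α1 receptor, was among the higher (0.60 ± 0.26, edgeR adjusted p = 0.323), and Adrb1 and Adrb3 were the lower. Of 9 cyclases tested, Adcy9 was lower (−1.59 ± 0.62) and Adcy1 higher (2.16 ± 0.92) in untreated KO at an unadjusted p under 0.05, or 22.2% against 15.9% of all genes. These and the other genes named at an unadjusted p in this account of the lists were chosen after their values were seen, apart from the up to 3 most abundant of each list.

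Among PKA subunits and inhibitors, Prkacb, the second catalytic subunit, was lower with Prkar2b in untreated KO (−0.80 ± 0.31, edgeR adjusted p = 0.305), and the inhibitor Pkig was higher (0.81 ± 0.34, adjusted p = 0.307). Prkar1a, the regulatory subunit found in most cells, was at 149 ± 32.6 CPM in WT and 107 ± 16.4 CPM in KO (−0.47 ± 0.22, edgeR adjusted p = 0.318). A-kinase anchoring proteins tether PKA within the cell. Of 11 tested, 4 were lower in untreated KO and none higher at an unadjusted p under 0.05 (Akap9, −1.40; Akap11, −0.85; Akap7, −0.75; Akap10, −0.69), or 36.4% against 15.9% of all genes, with a list median of −0.60 against 0.04 over all genes. After AAV-PRDM16 Akap1, which anchors PKA at mitochondria, was lower in KO (350 ± 44.4 against 480 ± 40.0 CPM, SD, n = 3; −0.46 ± 0.12, edgeR adjusted p = 0.153) and Akap5, at a low level, was higher (1.20 ± 0.44). The 2 were 18.2% of that list, against 13.7% of all genes. Of 16 cAMP phosphodiesterases, 3 were lower in untreated KO and none higher (Pde7b, −1.55; Pde3a, −1.17; Pde1a, −0.97), a share of 18.8% near the 15.9% of all genes. Pde7b and Pde3a were also lower in KO after AAV-PRDM16 (−0.89 ± 0.26 and −0.51 ± 0.21), where Pde10a and Pde7a were higher (0.57 ± 0.17 and 0.35 ± 0.16), together 25.0% of the list against 13.7% of all genes.

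Downstream of PKA, the lipolysis list held 7 genes. In untreated KO its median was 0.42, and only Plin5, a lipid droplet protein, was higher at an unadjusted p under 0.05 (0.69 ± 0.30, edgeR adjusted p = 0.309), or 14.3% against 15.9% of all genes. Pnpla2, the first lipase of triglyceride breakdown, was at 1976 ± 305 CPM in WT and 3033 ± 1548 CPM in KO (0.62 ± 0.34, edgeR adjusted p = 0.354). After AAV-PRDM16 the median of the list was −0.26, with 3 of the 7 lower in KO, namely Mgll (−0.54 ± 0.15), Plin1 (−0.31 ± 0.10) and Plin5 (−0.26 ± 0.11), or 42.9% against 13.7% of all genes. The difference between cohorts was not tested. Of 13 cAMP-responsive transcripts, Angptl4, an inhibitor of lipoprotein lipase, was higher in untreated KO (226 ± 62.8 CPM in WT against 450 ± 122 CPM in KO, SD, n = 5; 0.99 ± 0.28, edgeR adjusted p = 0.305), and Nr4a2 was lower (−1.43 ± 0.65). These were 15.4% of the list, near the 15.9% of all genes. After AAV-PRDM16 Sik1 (−0.99 ± 0.35) and Elovl3 (−2.66 ± 0.97) were lower in KO, or 15.4% of the list, near the 13.7% of all genes. Ucp1 was at 3119 ± 1300 CPM in untreated WT and 4526 ± 2080 CPM in KO (0.54 ± 0.41). After AAV-PRDM16 it was at 2790 ± 642 CPM in the WT and 1808 ± 588 CPM in the KO mice (−0.63 ± 0.31, edgeR adjusted p = 0.402).

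Noradrenaline synthesis could not be followed, because Th, its rate-limiting enzyme, was below 0.1 CPM in every library. Among the 4 genes of noradrenaline handling tested, the uptake transporter Slc22a3 (−0.66 ± 0.24) and the monoamine oxidases Maoa (−0.66 ± 0.30) and Maob (−0.84 ± 0.37) were lower in untreated KO. The remaining tested gene was higher. All 4 had an unadjusted p under 0.05, or 100% against 15.9% of all genes. Slc22a3 was also lower in KO after AAV-GFP (−0.33 ± 0.15, edgeR adjusted p = 0.541) and after AAV-PRDM16 (−0.41 ± 0.15, adjusted p = 0.262). Among 9 genes of receptor desensitisation, 3 were higher in KO after AAV-PRDM16, the receptor kinases Grk5 (0.51 ± 0.17) and Grk6 (0.26 ± 0.10) and the arrestin Arrb1 (0.34 ± 0.14), and the receptor kinase Grk3 was lower (−0.44 ± 0.12), or 44.4% against 13.7% of all genes. Grk5 was also higher after AAV-GFP (0.45 ± 0.17). In the Epac and CREB list of 11 (18.2% against 15.9% of all genes), Rapgef3 was higher (0.93 ± 0.36) and Atf2 lower (−0.79 ± 0.28) in untreated KO, and neither AAV comparison of KO with WT gave an unadjusted p under 0.05. Among the other receptors of fat, Adora2a (0.98 ± 0.36) and Sctr (1.15 ± 0.33) were higher in untreated KO, or 14.3% of the list against 15.9% of all genes.

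**Figure D5:**
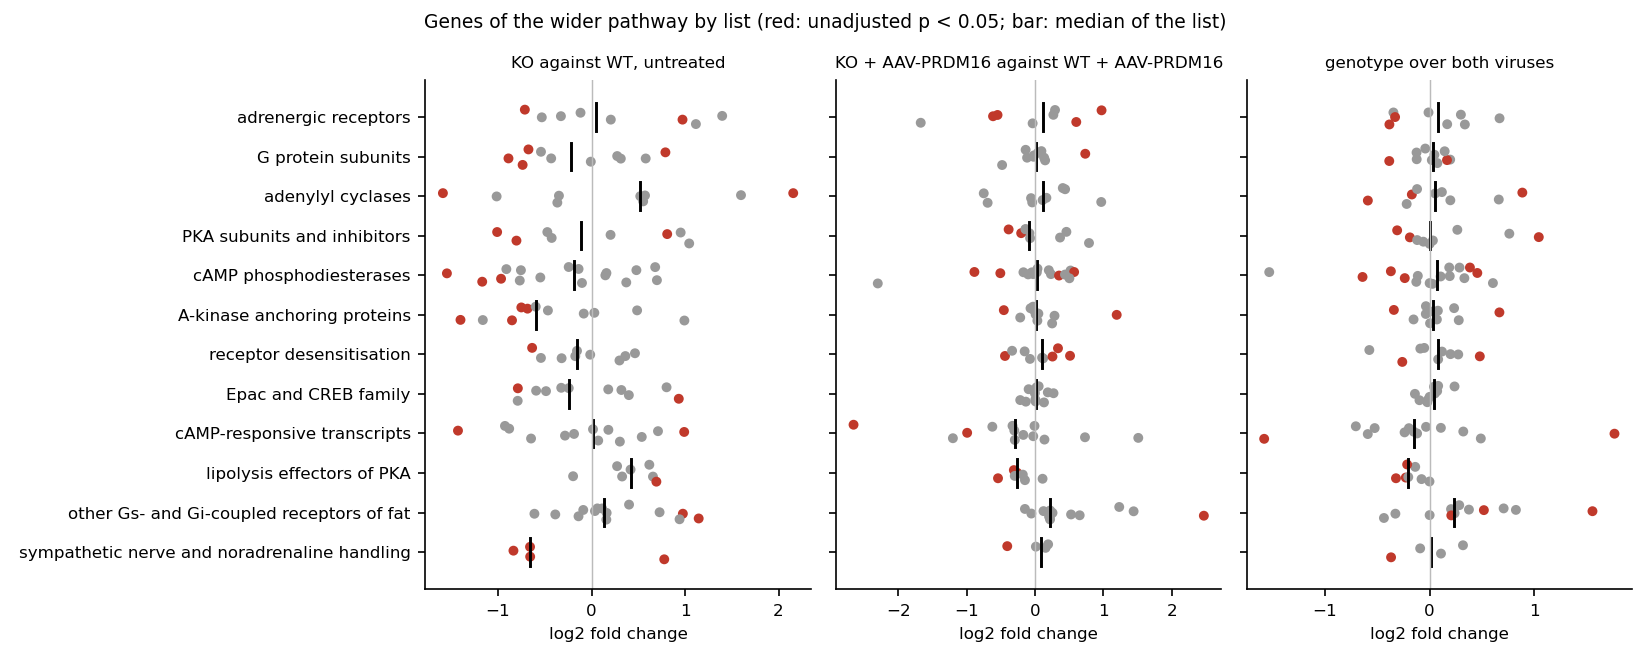
Log2 fold change of KO over WT for every tested gene of the 12 pathway lists in the untreated cohort, after AAV-PRDM16 and over both viruses, with the median of each list as a black bar, red points at an unadjusted p under 0.05, and a horizontal scale that differs between panels. The untreated anchoring proteins centre at −0.60 and the lipolysis genes at 0.42, and the lipolysis median is −0.26 after AAV-PRDM16.

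Across libraries, Prkar2b, Pde3b, Pde4d and Adra1a went together in the untreated cohort. Pearson's r of log2 CPM over the 10 untreated libraries was 0.94 for Prkar2b with Pde3b, 0.91 for Adra1a with Pde4d and 0.90 for Adra1a with Prkar2b, while Adrb3 with Prkar2b gave −0.81. Over the 12 AAV libraries the same pairs gave 0.24, 0.34, 0.32 and 0.58. These pairs were named for their untreated values, so lower AAV values do not show a loss of likeness. Among pairs of the set without Adra2a, other pairs were highest in the AAV libraries. They were Prkaca with Prkar2b (0.85, against 0.02 untreated) and Adcy3 with Prkar2b (0.81, against 0.41 untreated). The libraries of each cohort share their scaling and the differences in muscle and sex-linked transcripts given above, so these values are a description. Among 17197 genes tested in both cohorts, the genes whose pattern was most like that of Prkar2b, by the smaller of the 2 cohorts' r, were Rgs7 (0.99 in the untreated and 0.96 in the AAV libraries), Abcd3 (0.98 and 0.94) and Pnpla8 (0.98 and 0.93). For Adrb3 they were Ap1g2 (0.91 and 0.91), Ppdpf (0.92 and 0.89) and Myl6b (0.93 and 0.88). Prkaca was most like Rbpms2 (0.90 and 0.89), Ube3b (0.89 and 0.89) and Pgm1 (0.88 and 0.91). Adcy3 was most like Fitm2 (0.88 and 0.90), Rcl1 (0.87 and 0.86) and C3 (0.94 and 0.85). In the AAV libraries Adcy3 ran from 96.1 to 323 CPM, the highest in WT + AAV-PRDM16 replicate 1. By ranks (Spearman's rho), the AAV values of these Adcy3 matches were 0.66, 0.55 and 0.70. Pde3b was most like Ube2d3 (0.91 and 0.85), Mut (0.93 and 0.83) and Psmd5 (0.81 and 0.85), and Adra1a was most like Wbp11 (0.88 and 0.89), Gm6627 (0.82 and 0.87) and Rbm47 (0.79 and 0.79). The closest genes to Adrb1 (among them AC132253.9 and Gm49708) and to Pde4d (Tent4b, Galnt11 and Gm17249) reached smaller values, between 0.70 and 0.77.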

How the data were processed

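RNA-seq libraries from BAT were prepared by the study with the SureSelect XT HS2 mRNA kit. Per the labels and the submitters' processing notes, reads were handled with bcl2fastq 2.20, Trimmomatic 0.36 and HISAT2 against GRCm38.p6. The counting tool, strand setting, annotation release and handling of duplicates are not given in the sources used here. The authors deposited raw counts per gene for 55487 identifiers in 1 table per cohort, and the 2 tables were analysed separately. Other columns of the tables that belong to no sample were 0.

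Gene symbols and positions came from GENCODE M21 (GRCm38), which matched 55141 identifiers. Counts were filtered with filterByExpr, scaled by TMM and tested two-sided with the quasi-likelihood test of edgeR 4.0.16 (R 4.3.3), with Benjamini-Hochberg adjustment over all genes tested (17869 untreated, 18899 AAV), in 1 fit per cohort. CPM on the log2 scale used a prior count of 2. Exact permutation tests on log2 CPM were two-sided. All p-values measure the spread between these mice. Alternatives were DESeq2 1.42.0, limma-voom (limma 3.58.1), other scaling and filters, a replicate block, left-out libraries, a covariate for Y-linked transcripts and removal of GC and length trends. The fits were tested on simulated counts.

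The 9 genes and the pathway lists were chosen with earlier results of these data known. Genes named are the 9, Cpeb2, Prdm16, any list gene at an adjusted p of 0.05 and otherwise up to 3 of the highest level per list, and for likeness the 3 genes with the highest smaller r of both cohorts; any others were chosen after their values were seen. Some genes that these rules name are not reported here. Replicate numbers did not pair the samples: deviations of same-numbered libraries correlated between −0.29 and 0.11 over 5 untreated pairs and between −0.09 and 0.15 over 18 AAV pairs. No 2 libraries of a group agreed within sampling noise. Promoter sequences are from RefSeq. Counting intervals and floors cover counting error only.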

Additional observations from a re-analysis of the deposited data

Results flagged for a closer look

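Adrb3 was placed under a closer look because KO and WT differed in opposite directions in untreated mice and after AAV-PRDM16. The groups did not overlap in either of these comparisons. The log2 fold change was 0.97 in untreated mice, where all 5 KO libraries were above all 5 WT libraries, and −0.62 after AAV-PRDM16, where all 3 KO libraries were below all 3 WT libraries. After AAV-GFP the log2 fold change of KO against WT was −0.15 and the groups overlapped. The cohorts were normalised separately and the difference between them was not tested. They also differed in virus, in food deprivation as far as the study's methods give it, and in the sex-linked and muscle transcripts of the libraries, and these cannot be told apart. No library of the untreated groups stood far from its group in any of the 9 genes by Dixon's criterion (18 groups and genes examined).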

How the results depend on the processing

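No gene of the 9 passed an adjusted p of 0.05 in the reported fits. Of 1352 values of 8 genes and 9 contrasts under other settings, 9 passed the threshold and 73 changed sign, 17 of them by more than the standard error. After AAV-PRDM16, DESeq2 called 2 genes, Adrb1 (−0.54) and Adrb3 (−0.61), and limma-voom called 2, Adrb1 (−0.59) and Prkar2b (−0.39). Over both viruses DESeq2 called 3, Adrb3 (−0.38), Prkaca (−0.18) and Prkar2b (−0.30), limma-voom called 1, Prkar2b (−0.32), and leaving out KO + AAV-GFP replicate 1 gave 1, Prkar2b (−0.37), so that left-out libraries gave 0 to 1 gene. At 2-fold and an adjusted p of at most 0.5, 1 gene was called in the untreated cohort. The replicate block called 0 genes in every comparison, and a replicate number was not shown to pair samples.

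Signs turned for untreated Adrb1 (0.47 among libraries without Y-linked transcripts, 0.027 without WT replicates 1 and 2, 0.12 with the covariate) and, with the GC and length trend removed, for Prkaca (−0.33 untreated; 0.11 for KO + AAV-PRDM16 against KO + AAV-GFP), Pde3b (−0.14 for KO against WT after AAV-PRDM16; −0.15 over both viruses) and Pde4d (0.034 for the virus in WT; 0.10 over both genotypes). Values with 1 library left out turned sign for Adrb1 (−0.20 to 0.050 for KO against WT after AAV-GFP and −0.0998 to 0.15 for the virus in WT, both turning without WT + AAV-GFP replicate 3), Pde3b (−0.15 to 0.13 for KO against WT after AAV-GFP, without KO + AAV-GFP replicate 3) and Adrb3 (−0.32 to 0.048 for the virus in KO, without KO + AAV-PRDM16 replicate 3). They also turned for Adcy3 (−0.52 to 0.056 for KO + AAV-PRDM16 against WT + AAV-GFP, without WT + AAV-GFP replicate 2; −0.18 to 0.75 for the virus in WT, −0.0037 to 0.46 over both genotypes and −0.58 to 0.36 for the interaction, without WT + AAV-PRDM16 replicate 1). Adra1a turned too for KO against WT after AAV-GFP, from −0.10 without KO + AAV-GFP replicate 3 to 0.13 without WT + AAV-GFP replicate 2. Untreated Adcy3 ran from −0.97 with the covariate to 0.14 with muscle-rich libraries left out. Other sign changes are not listed here. The cause was not tested. Removing the trend moved the median of all genes to 0.11, 0.10 and 0.11 for the virus in WT, in KO and over both, and leaving out muscle-rich libraries moved it to −0.11. Subsets by Y-linked or muscle transcripts and the trend removal were chosen after seeing the data. Depth limited what could be measured of Adra2a.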
